A study of Mus musculus with 15 samples.

Results

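RNAPII domains are the longest stretches that the peak caller joined into 1 RNA polymerase II (RNAPII) peak before Myc was activated. They were chosen by peak length, as the peaks of 20 kb or more in the narrow RNAPII list at 0 min, and 252 of the 18877 peaks of that list met the rule. Since this length was measured in the 0 min RNAPII library, every 0 min RNAPII value of a domain is given as a description, and nothing is tested with it. The cells were 3T9 fibroblasts from embryonic day 13.5, with c-myc flox/flox alleles and infected in culture with MycER, a fusion of Myc to a hormone-binding domain, from a pBabe retroviral construct. RNAPII (antibody N20) and Myc (antibody N262) were mapped by chromatin immunoprecipitation with sequencing before (0 min) and 10 min, 20 min, 30 min, 2 h and 4 h after adding 400 nM 4-hydroxytamoxifen (OHT), which activates MycER. Miz1 (antibody 10E2) was mapped in these fibroblasts with no OHT added and in B cells taken with B220 beads from the spleen of C57BL/6 WT mice of 6 to 8 weeks. All fibroblast groups, the 0 min group included, carry the floxed alleles and MycER. MycER is driven by a viral construct and not by the Myc locus, and a Myc peak can stem from either protein, since N262 does not separate them. Each of the 14 libraries used is the only one of its group, so replicate spread is unknown and differences between times are given without p-values. Intervals are Wilson 95% intervals over regions and cover counting error only.

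RNAPII gathers at the transcription start site (TSS), often pauses just downstream of it, elongates through the gene and runs on past the end of the gene before it lets go of the DNA. A long unbroken peak can therefore form over a highly transcribed gene whose body carries polymerase throughout, or over several active genes that lie side by side. Myc binds mostly at active promoters, with its partner Max, and its preferred DNA element is the E-box CACGTG. Miz1, encoded by Zbtb17, is a zinc finger protein that can bind promoters with Myc.

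Sequences under the strongest Myc peaks of the longest domains are shown where they hold the E-box, to describe the DNA near these summits. For each domain the strongest Myc peak at 0 min was taken. Where CACGTG lay within 100 bp of its summit, 60 bases around the element were read from the plus strand of NCBIM37 (mm9). Both strands give the same result because the element is its own reverse complement. Capitals mark CACGTG, and 8 of the longest domains with such a peak are given.
Hmga2 domain, chr10:119914237-119914296: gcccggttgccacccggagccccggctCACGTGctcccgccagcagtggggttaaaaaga
Eya4 domain, chr10:23068262-23068321: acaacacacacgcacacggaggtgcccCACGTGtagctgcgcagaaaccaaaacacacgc
Plec domain, chr15:76035818-76035877: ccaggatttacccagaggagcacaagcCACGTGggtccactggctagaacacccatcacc
Gm13834 domain, chr6:31038707-31038766: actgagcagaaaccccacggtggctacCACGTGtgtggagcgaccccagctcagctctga
Col1a2 domain, chr6:4459543-4459602: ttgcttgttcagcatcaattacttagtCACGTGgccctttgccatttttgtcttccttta
Eef1d domain, chr15:75739611-75739670: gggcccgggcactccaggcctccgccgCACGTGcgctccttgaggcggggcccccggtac
Slc6a6 domain, chr6:91682251-91682310: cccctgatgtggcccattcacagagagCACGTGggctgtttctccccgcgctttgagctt
Wisp1 domain, chr15:66723747-66723806: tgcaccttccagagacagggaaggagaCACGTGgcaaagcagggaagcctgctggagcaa

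The Hmga2 and Gm13834 windows lay between annotated genes, 747 bp and 840 bp from the nearest TSS. Those of Eya4, Plec, Eef1d, Slc6a6 and Wisp1 lay in introns of these genes, and that of Col1a2 in an exon of a noncoding Col1a2 transcript. The distance to the nearest TSS was smallest at Eef1d (91 bp) and largest at Slc6a6 (48220 bp), so a strong Myc peak with an E-box in a domain was not always a promoter peak. In the Myc 0 min list these peaks had a fold enrichment of 14.4 (Col1a2) to 44.4 (Gm13834). Fold enrichment is the authors' value of ChIP over local control tags, and it ranks peaks within a list only.

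The mature sequences of miRNAs from 4 domains are shown because members of a pair share the seed, the bases 2 to 8 that pair with target RNAs. Of the 29 miRNA genes with at least 50% of their length under a domain, 14 were matched in the RefSeq miRNA table (GRCm38.p6) by name. Capitals mark the seed, and the sequences run 5′ to 3′.
miR-29a-3p: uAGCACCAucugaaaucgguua
miR-29b-3p: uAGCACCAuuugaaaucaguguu
let-7c-5p: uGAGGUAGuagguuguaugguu
let-7b-5p: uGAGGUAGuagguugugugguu
miR-15b-5p: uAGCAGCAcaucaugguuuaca
miR-16-5p: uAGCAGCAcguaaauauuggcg
miR-31-5p: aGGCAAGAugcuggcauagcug

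Mir29a and Mir29b-1 lay side by side on chromosome 6, Mirlet7c-2 and Mirlet7b on chromosome 15, and Mir15b and Mir16-2 on chromosome 3. Each of these 3 pairs shared 1 domain and 1 seed. Mir31, on chromosome 4, was the only annotated gene of its domain.

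Depth differed between the RNAPII libraries, with 15276996 tags for 0 min, 19999678 for 10 min, 36396286 for 20 min, 16274905 for 30 min, 19859793 for 2 h and 16268203 for 4 h. The narrow lists held 252, 488, 751, 422, 354 and 283 peaks of 20 kb or more at these times. The deepest library had the most long peaks and the shallowest the fewest, so time and depth cannot be told apart over the 6 libraries. The 4 h and 30 min libraries had about the same depth, and so had the 2 h and 10 min libraries, and in both pairs the later library had fewer long peaks. Fibroblast markers fixed as a list were under domains in 4 of 10 (Fn1, Col1a2, Sparc and Col1a1), and markers of B cells, of T or myeloid cells, of neurons and of hepatocytes in 0 of 10, 0 of 10, 0 of 7 and 0 of 8.

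The domains were 20076 to 93856 bp long, with a median of 26752 bp. Together they covered 7427478 bp, which was 10% of the bases and 12.8% of the tags under all narrow peaks of the 0 min list. Their fold enrichment ran from 7.0 to 202, with a median of 49.3, against 32.5 in the 862 peaks of 10 to 20 kb and 12.5 in all 18877 peaks. The median density was 59.8 tags per kb, against 38.2 in all peaks. Chromosome 11 held 31 domains, chromosome 15 held 23, chromosome 4 held 20 and chromosome 19 held 19. As a share of the peaks of the chromosome, these were 1.82, 2.69, 1.51 and 2.97%, against 1.335% over all peaks. Chromosome 6 had 1.89% with 17 domains. The lowest shares were 0.597% on chromosome 14 and none among the 438 peaks of chromosome X. The highest fold lay at 1110005A03Rik (22824 bp, 202-fold), a gene named here after its value was seen, followed by the Malat1 and Neat1 domain (157-fold).

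**Figure D1:**
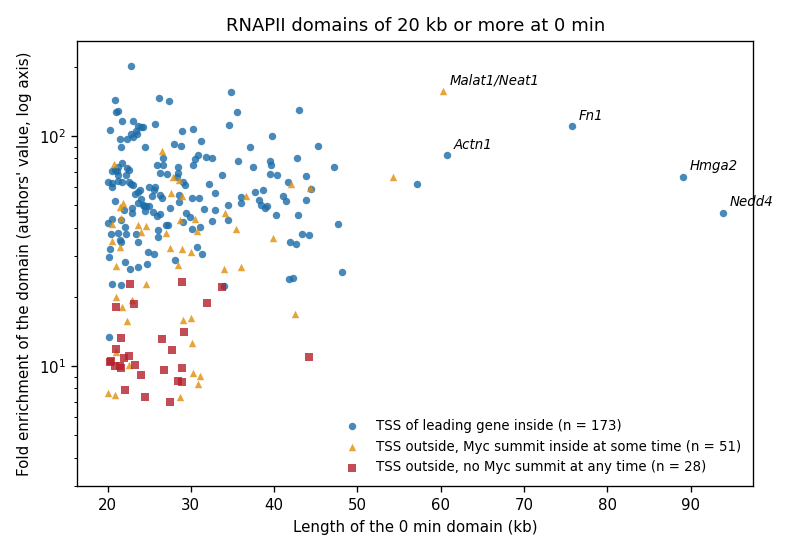
Each point is 1 of the 252 domains at 0 min, with its length in kb on the x axis and the authors' fold enrichment on a log y axis. Colours and shapes separate the 173 domains that hold the TSS of their leading gene, 51 that do not but hold a Myc summit at some time, and 28 that hold no Myc summit at any time, which lie at the low end of fold.

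Most of the longest domains lay over a single long gene. For each domain the leading gene is the protein-coding gene with the most bases inside it, or any annotated gene where there is none. The longest was over Nedd4, a ubiquitin ligase (chr9:72508011-72601866, 93856 bp, 46.4-fold), and covered the whole gene of 87286 bp with 4217 bp past its end. The second, of 89148 bp (chr10:119827169-119916316, 66.6-fold), held the start and 74.97% of Hmga2, a chromatin protein of proliferating embryonic cells. The third, of 75766 bp, covered Fn1, which encodes the matrix protein fibronectin, in full (chr1:71626006-71701771, 110.3-fold). The fourth held the start of Actn1, the actin crosslinker α-actinin 1 (60758 bp, 82.5-fold). The fifth, of 60233 bp, covered the nuclear noncoding RNAs Malat1 and Neat1 in full and 11.3% of the neighbouring Frmd8, its leading gene by the rule (chr19:5792359-5852591). Further down the order were Tsc22d2 (57158 bp), Timp3 inside the much longer gene Syn3 (54303 bp), Eya4 (48151 bp), the actin-binding caldesmon gene Cald1 with separate domains of 47682 bp and 44164 bp, and the RNA-binding protein gene Syncrip (47151 bp). There were 3 groups of domains that lay at most 5000 bp apart. They were 3 domains of Actn1 spanning 103195 bp, the 2 of Cald1 spanning 93205 bp, and Rbm4b with Rbm14, both genes of RNA-binding proteins, spanning 53375 bp.

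Most domains held at least 50% of a protein-coding gene, and 139 of 252 held at least 90% of their leading gene. At least 50% of the length of 263 protein-coding genes lay under a domain, which is 1.18% of the 22238 protein-coding genes, and 424 were touched by one. There were 142 domains with 1 such gene and 53 with 2 or more, while 51 lay on part of a longer gene and 6 overlapped no protein-coding gene. The domains also held at least 50% of 29 miRNA, 37 snoRNA and 20 lincRNA genes. A median of 84.8% of a domain lay in annotated genes. Genes with an RNAPII peak at the promoter were under a domain in 3.07% (45 of 1467) where they were shorter than 5 kb, 2.25% (32 of 1422) at 5 to 10 kb, 4.0% (85 of 2125) at 10 to 20 kb, 3.58% (82 of 2291) at 20 to 40 kb and 0.536% (18 of 3357) at 40 kb or more. A gene of 40 kb or more was thus rarely covered over 50% of its length.

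Genes of RNA binding and splicing had the largest share under domains among the lists compared, with 16 of 32 members at least 50% under one, against 1.18% of all protein-coding genes. Among these 16 were Rbm39, Hnrnpd, Sfpq, Tra2b, Srrm1, Srrm2, Hnrnpc, Srsf1, Hnrnpab, Ddx17, Hnrnpa2b1, Hnrnpu, Srsf2, Srsf3 and Hnrnpk, most of which encode heterogeneous nuclear ribonucleoproteins or serine/arginine-rich splicing factors. Rbm39 had a domain of 39090 bp, Hnrnpd of 32536 bp and Sfpq of 31263 bp. The lists were written with earlier results of these data known, and 0 min peak length chose the domains, so these shares describe the domains and test nothing.

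After the fibroblast markers (4 of 10), translation factors followed with 8 of 22. They were Eef1d, a subunit of elongation factor 1 (42899 bp), the initiation factor genes Eif3a (37432 bp), Eif4b (36083 bp), Eif2s2 (30791 bp), Eif4h (30726 bp) and Eif4g1, the poly(A)-binding protein gene Pabpc1 (28843 bp), and Eef1g. Chaperones had 6 of 24, namely the protein disulfide isomerase P4hb (42761 bp), Cct3 (31151 bp), Hspa9 (28550 bp), Hspa4 (25521 bp), and the mitochondrial pair Hspd1 and Hspe1, which share 1 domain of 20917 bp. Ribosome biogenesis had 3 of 24, Nolc1, Nop2 and the nucleolin gene Ncl. Ribosomal proteins had 1 of 38, Rpl7a, which lay with neighbours in a domain of 28010 bp.

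Over the full lists, matrix and cytoskeleton genes had smaller shares than translation factors and chaperones. The order against chaperones did not hold among genes of 5 to 40 kb with an RNAPII promoter peak. There the shares were 33.3% for collagen and matrix, 23.5% for actin and cytoskeleton and 22.2% for chaperones. Collagen and matrix genes had 6 of 32 under domains, namely Fn1, Timp3, Col1a2 (42965 bp, 130.3-fold), Sparc (29027 bp), Col1a1 (27378 bp, 143-fold) and Thbs1 (21278 bp). Actin and cytoskeleton genes had 7 of 38, namely Actn1, the cytolinker gene Plec (44323 bp), the tropomyosin genes Tpm1 (34634 bp) and Tpm4 (24871 bp), the nuclear lamin gene Lmna (28578 bp), the cofilin gene Cfl1 (21782 bp) and Pdlim7. Glycolysis had 2 of 17, Pkm2 and the lactate transporter Slc16a3. Immediate-early genes had 2 of 34, Fosl2 and Mcl1, and YAP and TGF-β targets had 2 of 23, Smad7 and Amotl2. The cell cycle list had 2 of 24, Top2a (37103 bp) and Cdk1 (23035 bp), and adhesion and growth receptors 1 of 20, Itga5. Long noncoding RNAs had 2 of 15, Malat1 and Neat1, and replication histones, which are very short genes, had 0 of 70.

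Within a single class of gene length, RNA binding and splicing genes and translation factors again had high shares. Among genes of 5 to 40 kb with an RNAPII promoter peak, 15 of 28 RNA binding and splicing genes (53.6%), 8 of 19 translation factors (42.1%), 4 of 12 collagen and matrix genes (33.3%), 4 of 17 actin and cytoskeleton genes (23.5%), 4 of 18 chaperones (22.2%) and 2 of 8 YAP and TGF-β targets were under a domain. Over all 5838 such genes the share was 3.41% (199 genes). Fibroblast markers had 3 of 6 (50%) in this class, and ribosomal proteins had 0 of 10.

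**Figure D2:**
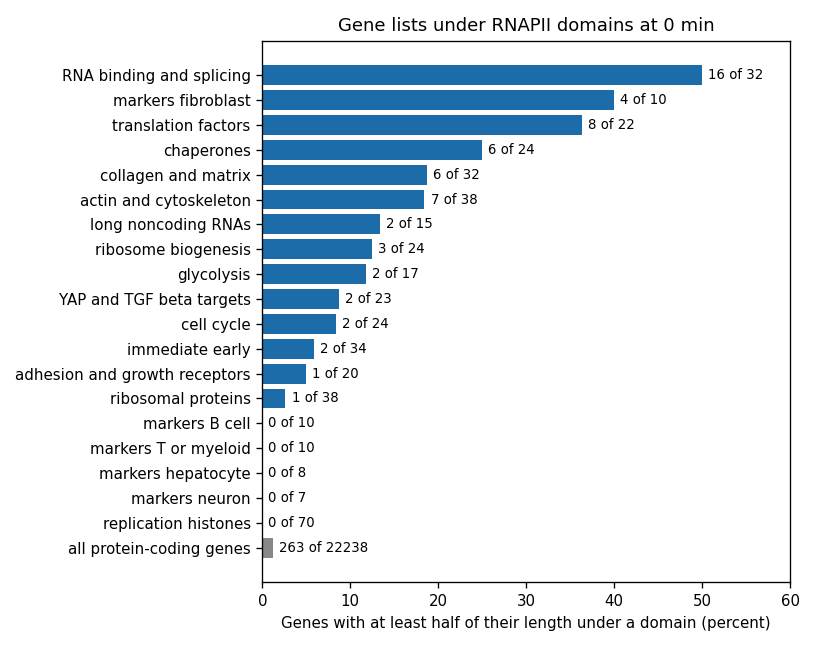
Bars give the percent of each gene list with at least 50% of the gene length under a domain, with the counts beside them and all protein-coding genes in grey at the bottom. RNA binding and splicing genes stand first with 16 of 32, and the markers of B cells, T or myeloid cells, neurons and hepatocytes are at 0.

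Several domains covered a run of neighbouring genes. The domain with the most genes covered Surf4, Surf2, Surf1, Rpl7a and Med22, the surfeit locus (chr2:26762313-26790322). That of Eef1d also covered Naprt1, Pycrl and Tsta3. The P4hb domain covered Arhgdia and Thoc4, the Arpc1b domain (42573 bp) covered Pdap1 and Bud31, and the Pcbp2 domain (42275 bp) covered Map3k12 and Gm10337. Their fold was close to that of domains with 1 gene, with medians of 55.0 in the 53 domains with 2 or more genes and 53.1 in the 142 with 1. The 51 on part of a longer gene had a median of 25.5 and leading genes with a median length of 74997 bp, of which a median of 23.0% lay under the domain.

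No protein-coding gene was overlapped by 6 domains, and 5 of them held miRNA genes. The domain of Mir29a and Mir29b-1 (chr6:30999451-31043605, 44155 bp, 37.1-fold) lay 90461 bp from the nearest protein-coding gene before it, Klf14. That of Mirlet7c-2 and Mirlet7b (chr15:85498146-85541450, 43305 bp, 37.5-fold) lay between Wnt7b and Ppara. Mir31 had a domain of 38392 bp (chr4:88551461-88589852, 50.2-fold), of which 97.6% was also under broad RNAPII peaks at 0 min, the highest share of all domains. Mir193 and Mir365-2 lay in a domain of 31578 bp (chr11:79523699-79555276, 48.0-fold). Mir143 and Mir145 shared a domain of 24239 bp (110.0-fold) with Gm16908. The remaining domain lay on the noncoding gene Dleu2 (26550 bp, 13.1-fold). The lists hold no RNA, so no transcript can be assigned to these domains. Outside this class, the domain of the condensin gene Smc4 (43884 bp) also held Mir15b and Mir16-2.

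Where RNAPII lay relative to the gene split the domains in a larger and a smaller class. The annotated TSS of the leading gene was inside in 173 of 252 domains (68.7%, 62.7 to 74.1) and outside in 79. Domains with the TSS inside had a median fold of 58.0 and 68.0 tags per kb, and covered a median of 100% of a leading gene of 19733 bp. Domains with the TSS outside had a median fold of 19.5 and 44.8 tags per kb, and covered 41.4% of a leading gene of 46019 bp. Both classes were about equally long, with medians of 26614 bp and 26972 bp. All 79 lay downstream of the TSS, by a median of 22683 bp. At 66 of the 79 (83.5%) a 0 min peak lay within 1000 bp of that TSS, and 57 of the 79 held the end of the gene. The count of 66 did not leave out the domain itself where it began within 1000 bp of the TSS. The smaller class was therefore made mostly of peaks over the later part of a long gene, usually with a 0 min peak near the gene start. It also holds cases where the rule names a neighbour, such as the Malat1 and Neat1 domain.

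The strongest point of a domain was usually at a gene start. The RNAPII summit lay within 1000 bp of an annotated TSS in 193 of 252 domains (76.6%, 71.0 to 81.4), against 51.8% of all 0 min peaks. It lay within 3000 bp of an end of the domain in 144 (57.1%). Both the TSS and the end of the leading gene lay in 133 domains. These passed that end by a median of 6297 bp, with a range of 269 bp at Vcp to 38158 bp at Gm13834. Where the leading gene is a short noncoding one, such as Gm13834 (304 bp) or Mir365-2 (112 bp), this distance mostly reflects the domain length. The domain passed the end by 5000 bp or more in 80 of the 133. Examples were Pabpc1 with 13519 bp past the end, Fubp1 with 13874 bp and Syncrip with 12492 bp. These domains thus ran past the annotated end, and the part of a downstream neighbour in this was not tested.

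The broad RNAPII list of the same 0 min library cut the domains into pieces. A broad peak overlapped 249 of 252 domains (98.8%, 96.6 to 99.6), against 62.5% of all 0 min narrow peaks. The exceptions were Cdc42, Ccdc45 and Ipo7. Both lists come from 1 library, so this sets 2 callers side by side and not 2 samples. An overlap of 1 bp was enough, which a longer region meets more easily, and the part of length was not tested. Broad peaks covered a median of 36.2% of a domain and at least 50% of 81 domains, with a median of 7 broad peaks in a domain and up to 53 in that of Nedd4. The longest broad peak in a domain had a median of 3098 bp. A single broad peak of 20 kb or more lay in 5 domains, those of Col1a2 (39382 bp), Tpm1 (32552 bp), Malat1 and Neat1 (29430 bp), Hnrnpa2b1 (20658 bp) and Col1a1 (20362 bp). Broad cover was higher where the TSS was inside (median 42.9%) than where it was outside (21.2%).

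At the later times most domains were still under narrow RNAPII peaks. A narrow peak overlapped 226 of 252 domains at 10 min, 219 at 20 min, 229 at 30 min, 229 at 2 h and 243 at 4 h. All 5 later lists had one in 198 domains (78.6%, 73.1 to 83.2), against 68.2% of all 0 min narrow peaks and 81.8% of those of 10 to 20 kb. At least 90% of the domain was covered at all 5 later times in 159 (63.1%, 57.0 to 68.8), against 34.9% of all 0 min narrow peaks and 51.9% of those of 10 to 20 kb. Presence was therefore close to that of shorter peaks, while full cover was more frequent in the domains than in either comparison group. A cutoff of 90% leaves room for a larger shift of the edges in a longer peak, and the part of length in this was not tested.

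A single later peak of 20 kb or more overlapped 206 domains at 10 min (81.7%), 211 at 20 min, 190 at 30 min (75.4%, 69.7 to 80.3), 181 at 2 h (71.8%) and 172 at 4 h (68.3%, 62.3 to 73.7). All 5 lists had such a peak over 129 domains (51.2%) and none of the 5 over 10 domains, namely Syn3 with Timp3, Kirrel, Mtdh, Nisch, Csnk1d, Dleu2, Luc7l2, Ccdc45, Cdk17 and Palld. An overlap of 1 bp was enough here and wherever a domain is said to be under such a peak. A single peak of any length covered at least 90% of the domain in 191, 201, 177, 168 and 146 domains at the 5 later times. The domain was split over 2 or more peaks in 35, 17, 51, 60 and 93 domains at 10, 20 and 30 min, 2 h and 4 h. The split was least frequent in the deepest library, at 20 min. Between libraries of like depth, 93 domains were split at 4 h, against 51 at 30 min, and 60 at 2 h, against 35 at 10 min. The whole lists differed in the same direction, with 283 peaks of 20 kb or more at 4 h, against 422 at 30 min. They held 354 at 2 h, against 488 at 10 min. The counts of this paragraph are not set beside those of shorter peaks, so none of them is shown to be particular to the domains.

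The later peaks were close to the 0 min domains in median length. Among domains with a narrow peak, the longest overlapping peak had a median of 1.02 times the 0 min length at 10 min, 1.07 times at 20 min, 1.01 times at 30 min and at 2 h, and 0.970 times at 4 h. It was longer than the 0 min domain in 162, 181, 127, 138 and 73 of the 252 domains. In 225 domains with a peak at both 30 min and 4 h, the longest was longer at 30 min than at 4 h in 160 (71.1%), and the share was 67.0% in 806 peaks of 10 to 20 kb. A margin of 10% is wider in bp for a longer peak, and the part of length in the next shares was not tested. The longest peak stayed within 10% of the 0 min length at both times in 99 of the 225 (44.0%), against 24.3% of the shorter peaks. It did so at all 5 later times in 72 of the 198 domains present throughout, the longest of which were those of Malat1 and Neat1, Syncrip, Fubp1, Mirlet7c-2, Col1a2, Eef1d, Pcbp2 and Kpnb1, an importin.

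**Figure D3:**
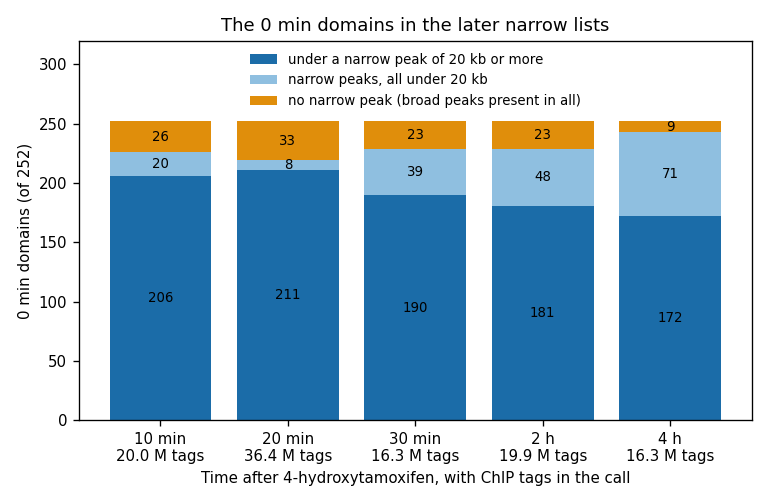
Bars count the 252 domains at each later time by what the narrow list of that time holds over them, with the tags of the library under each bar. Domains overlapped by a peak of 20 kb or more number 206, 211, 190, 181 and 172. Those without a narrow peak number 26, 33, 23, 23 and 9, all of which had broad peaks at that time.

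The longest domains show how differently single genes behaved. Fn1 had a longest overlapping peak of 75766 bp at 0 min, 76580 bp at 10 min, 99208 bp at 20 min, 76435 bp at 30 min, 76005 bp at 2 h and 76017 bp at 4 h. The domain of Malat1 and Neat1 had 60233, 60714, 60585, 59057, 60279 and 59555 bp at these times, and that of Col1a2 had 42965, 42572, 43095, 42570, 43138 and 41117 bp. These 3 domains kept nearly the same bounds in 6 libraries of different depth, apart from Fn1 at 20 min. Hmga2 instead had 89148, 125740, 127274, 124267, 83180 and 54548 bp, with 7 separate peaks at 4 h. Its cover by broad peaks ran the same way, at 47.2, 95.8, 96.9, 93.7, 29.4 and 11.9%. Between the libraries of like depth, Hmga2 was thus under 7 peaks at 4 h, against 1 peak longer than the domain at 30 min.

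Anxa2, the annexin A2 gene, and Wdr1, which helps take actin filaments apart, had shorter peaks at the late times. Anxa2 had 44435, 44747, 44704 and 44864 bp from 0 to 30 min, 16636 bp at 2 h and 16187 bp at 4 h. Wdr1 had 43847, 43371, 46869 and 43308 bp, then 16192 and 5717 bp. Both also had low broad cover at 4 h, with 8.67% for Anxa2 and 3.29% for Wdr1, against 51.6% and 24.4% at 0 min. Top2a, the DNA topoisomerase of dividing cells, had 37103, 36528, 16805, 10710, 6323 and 20711 bp. Tsc22d2 had 57158 bp at 0 min, no narrow peak at 10 min, then 31826, 16734, 32143 and 20332 bp.

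Domains without a narrow peak at a later time still had broad RNAPII peaks at that time. Nedd4 had peaks of 93296 to 94021 bp at 10, 20 and 30 min and at 4 h, and no narrow peak at 2 h, when 66.3% of the domain lay under broad peaks. Actn1 had no narrow peak at 20 and 30 min, when 94.9% and 75.8% of the domain lay under broad peaks, and 12163 bp at 4 h, when 8.99% did. Over all domains, 54 had no narrow peak at some later time, and each of them had broad peaks at that time. In the narrow or the broad list together, every domain had a peak at all 5 later times. An overlap of 1 bp was enough for these counts, and the same share over all 0 min peaks is not given. Broad cover could be small, at 1.49% for Kirrel at 10 min and 9.09% for Mtdh at 4 h.

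**Figure D4:**
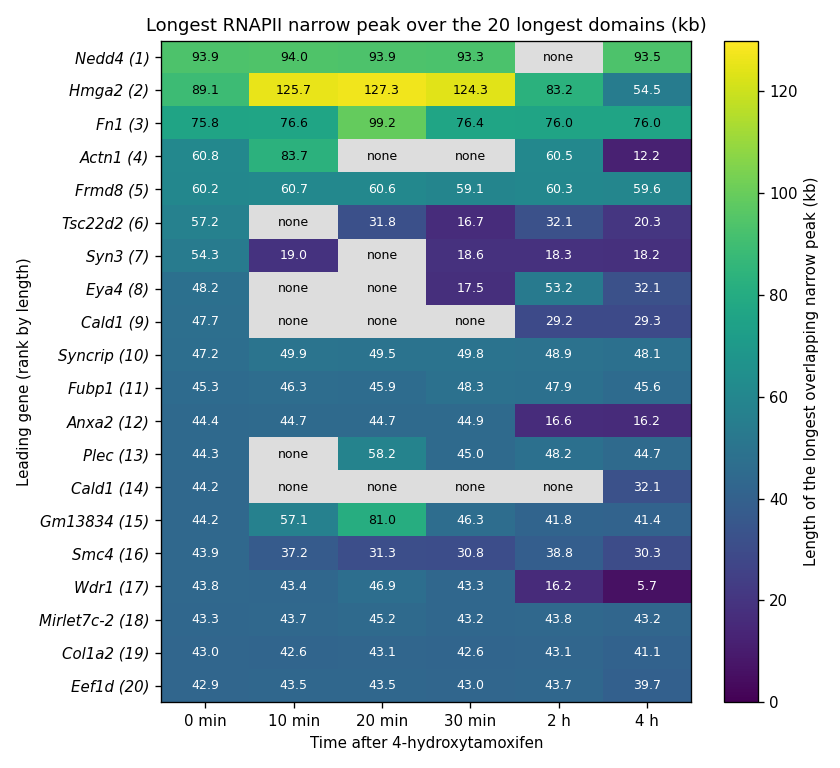
The grid gives the length in kb of the longest narrow RNAPII peak that overlaps each of the 20 longest domains at each time, with the leading gene and its rank by length on the left. Grey cells have no narrow peak; Fn1, Frmd8 with Malat1 and Neat1, Syncrip, Fubp1, Mirlet7c-2, Col1a2 and Eef1d are close to their 0 min length in nearly every column, Hmga2 is longest at 10 to 30 min, and Anxa2 and Wdr1 are short at 2 h and 4 h.

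Domains that dropped out of a later narrow list had lower median values at 0 min, although strong ones were among them. Narrow peaks were missing over 26 domains at 10 min, 33 at 20 min, 23 at 30 min, 23 at 2 h and 9 at 4 h. At 10 min the missing domains had a median 0 min score of 249, against 1068 in those with a peak, and a median fold of 17.7, against 51.4. The score is larger where the caller's p is smaller. The same order held at 20 min (390 against 1072), 30 min (390 against 1047), 2 h (218 against 1054) and 4 h (366 against 974). Narrow peaks were missing at some later time over 18 of 173 domains with the TSS inside and over 36 of 79 with it outside. Among the strong domains, Plec (59.7-fold) was missing at 10 min and Actn1 (82.5-fold) at 20 and 30 min. Mtdh and Nisch were missing from all 5 later lists. Whether the peaks were lost in calling or in the cells was not tested; the broad cover at that time had a median of 22.6, 59.0, 23.3, 26.5 and 15.6% in the missing domains.

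At 4 h the domains without a narrow peak included those of Ywhae, a 14-3-3 protein (40181 bp at 0 min), Arhgef2, a guanine nucleotide exchange factor (38945 bp), Ext1, a heparan sulfate polymerase (34031 bp), the calcium pump Atp2a2 (29077 bp), Mtdh, Nisch, Thrap3 and Nup153. Arhgef2 had narrow peaks of 38619 to 39434 bp at the 4 earlier times after OHT and 59.2% broad cover at 4 h. The least covered among domains with a 4 h peak were Orc3, Rbpj, the transcription factor of Notch, Itga5, the fibronectin receptor subunit α5, Vcp, Timp2 and Mgea5. Itga5 had 33818, 34245, 30589 and 30367 bp from 10 min to 2 h and 8088 bp at 4 h, and Rbpj had 40113 to 40351 bp from 10 to 30 min, 15023 bp at 2 h and 7881 bp at 4 h.

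Other domains were part of a longer peak later. Tfdp1, the partner of E2F factors, had 47904 bp at 4 h, against 23604 bp at 0 min, and Ipo7, an importin of ribosomal proteins, had 46747 bp at 4 h, against 22591 bp. Ptges3, a co-chaperone of Hsp90, had 61737 bp at 4 h, against 41683 bp at 0 min, and had 59870 to 64133 bp at the 4 times between. Khdrbs1, an RNA-binding protein, had 48753 bp at 4 h, against 29272 bp at 0 min. Wdr43, a factor of ribosome biogenesis, had no narrow peak at 10 min and 2 h and 49731 bp at 4 h, against 31950 bp at 0 min, with broad cover of 54.9% against 12.1%. Tfdp1 likewise had 80.7% broad cover at 4 h, against 23.9% at 0 min, so both lists agree in direction at these 2 genes. At Khdrbs1 they do not, with 13.0% at 4 h, against 19.8% at 0 min.

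The gene groups are given by how many of their domains were under a long peak later, as counts from small lists whose differences were not tested. Of the 16 domains that hold the RNA binding and splicing genes, 16, 16, 15, 13 and 16 were under a peak of 20 kb or more at 10, 20 and 30 min, 2 h and 4 h. The 8 domains of translation factors gave 8, 8, 8, 7 and 8, and the 6 of collagen and matrix genes gave 5, 5, 4, 5 and 5. The 7 of actin and cytoskeleton genes gave 6, 6, 6, 7 and 5, and the 5 of chaperones 4, 5, 5, 5 and 4. All 252 domains gave 206, 211, 190, 181 and 172. Domains with the TSS inside were under such a peak in 134 of 173 at 4 h (77.5%), those with it outside in 38 of 79 (48.1%), and those on part of a longer gene in 21 of 51 (41.2%). The 5 domains of miRNA genes without a protein-coding gene were under 1 at all later times, and Mir31 had 46806, 46466, 45332, 46318 and 38191 bp, against 38392 bp at 0 min.

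Many long peaks of later lists were not domains at 0 min. A 0 min domain was overlapped by 205 of the 488 peaks of 20 kb or more at 10 min, 214 of 751 at 20 min, 191 of 422 at 30 min, 182 of 354 at 2 h and 172 of 283 at 4 h, which is under 50% up to 30 min and over 50% at 2 h and 4 h. Nearly all of the others had shorter narrow peaks under them at 0 min, in 276 of 283 at 10 min and in 100 of 111 at 4 h, with a median of 81.1% and 79.1% of their length covered. Long later peaks with no 0 min narrow peak at all numbered 7, 7, 16, 7 and 11, of which 6, 3, 11, 6 and 11 had a 0 min broad peak under them. Among these, named after their values were seen, were Myh9, the heavy chain of nonmuscle myosin (91901 bp at 10 min, with 86.6% under 0 min broad peaks), Sf3b3, a splicing factor subunit (44099 bp at 10 min, with 28.3%), and Vcl, vinculin (91320 bp at 30 min, with 24.8%). The remaining long peaks had neither a narrow nor a broad peak under them at 0 min.

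Myc lay in most domains before OHT. A Myc summit was inside 215 of 252 domains at 0 min (85.3%, 80.4 to 89.2), against 57.3% of all 0 min narrow RNAPII peaks and 67.8% of those of 10 to 20 kb. At 4 h it was inside 220 (87.3%, 82.6 to 90.9), against 59.6% of all. The counts between were 221, 221, 221 and 223, and the 215 domains with Myc at 0 min had it at all 6 times. A longer region has more room for a summit, so the density was compared too. Per 10 kb the domains held 0.574 summits at 0 min, fewer than the 0.723 in peaks of 10 to 20 kb and the 1.58 in all RNAPII peaks.

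Myc was present in every domain that held the start of its leading gene. All 173 domains with the TSS of the leading gene inside held a Myc summit at all 6 times. Of the 79 with it outside, 47 held 1 at 4 h, against 42 at 0 min. When only RNAPII peaks that hold the TSS of a protein-coding gene were compared, Myc was in 184 of 186 domains (98.9%), 500 of 520 peaks of 10 to 20 kb (96.2%) and 7584 of 8471 of all (89.5%). In a window of equal width, 1000 bp either side of the RNAPII summit, Myc was present at 0 min in 85.0% of the 193 domains with the summit at a TSS, against 82.3% of all 9776 such peaks. Away from a TSS these shares were 30.5% of 59 domains and 24.6% of 9101 peaks. The domains are among the peaks they were set against, and the gap was widest, at 98.9% against 89.5%, where peaks of unequal length were compared.

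Myc summits were most numerous at the start of the domains. At 0 min the domains held 426 Myc summits, of which 248 (58.2%, 53.5 to 62.8) lay within 1000 bp of a TSS, against 73.1% of the summits in all RNAPII peaks. Read in the direction of the leading gene, the first 20% of the domain held 46.2% of them (197), the following 3 stretches of 20% held 11.5, 13.6 and 10.6%, and the last 20% held 18.1% (77). The strongest Myc summit lay a median of 265 bp from the RNAPII summit, and within 1000 bp of it in 145 of 215 domains. The far end thus held more than each of the 3 middle stretches.

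**Figure D5:**
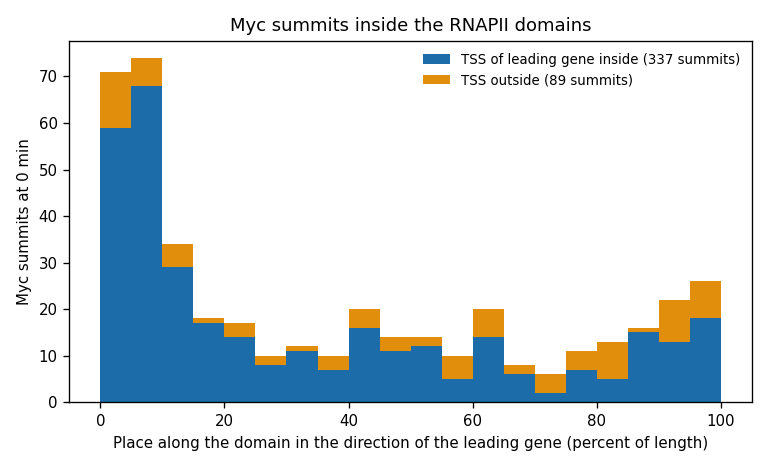
The histogram counts the 426 Myc summits at 0 min by their place along the domain, from the end where the leading gene starts (0%) to the other end (100%), in bins of 5%. Summits in domains with the TSS inside (337) and outside (89) are stacked, and the bins nearest 0% stand far above the others.

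The number of Myc summits in the domains was 426 at 0 min, 442 at 10 min, 460 at 20 min, 446 at 30 min, 480 at 2 h and 445 at 4 h. More summits at 4 h than at 0 min were found in 39 domains (15.5%, 11.5 to 20.5), against 4.57% of all 0 min narrow peaks, and fewer in 25 (9.92%, 6.81 to 14.2), against 2.28% of all. In peaks of 10 to 20 kb these shares were 8.93% and 4.64%. A region with several summits can differ in either direction more easily than a short peak with 1. The most summits at 4 h were in the domain of Malat1 and Neat1 (8, against 6 at 0 min), the longer domain of Cald1 (7, against 5), Actn1 (6, against 7), Pmepa1, an inhibitor of TGF-β signalling (6, against 3), Smad7, another such inhibitor (6 at both times), and Mirlet7c-2 (5, against 4). The Mir29 domain of Gm13834 had 3 at 4 h, against 5 at 0 min. In addition, 4 domains lacked Myc at 0 min and held it in each of the 5 later lists (1.59%, 0.619 to 4.01), against 1.89% of all 0 min narrow peaks, a share near the background. Each had 1 summit at 4 h: the longer domain of Kirrel, Atp2a2, Adnp and Foxp1.

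Myc peaks called in the domains only later had a lower fold and lay less often at gene starts than those overlapping a 0 min peak. Absence at 0 min chose them, so their low fold is a description and tests nothing. Such peaks outside the domains are not set beside them, so none of this is shown to be particular to the domains. At 10, 20 and 30 min, 2 h and 4 h, 43, 61, 38, 82 and 51 of the summits belonged to a peak that overlapped no 0 min Myc peak. At 4 h 9.8% of these lay at a TSS, against 58.1% of the 394 that overlapped a 0 min peak. Their median fold in the 4 h list was 7.17, against 21.9. The pattern was alike at 10 min, with 14.0% at a TSS, against 58.7%, and a median fold of 7.09, against 22.0. The Myc lists came from 28132063 to 33431447 tags, and the part of depth in the number of such peaks was not tested.

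No Myc summit lay in 28 domains at any time. None of them had the TSS of the leading gene inside, and their median fold for RNAPII was 10.7, against 52.8 in the other 224. The longest were the second domain of Cald1 (44164 bp, 10.9-fold), Csnk1a1, casein kinase 1α (33694 bp), Wdr43 (31950 bp), Mtap (29157 bp), the GTPase gene Cdc42 (28973 bp) and Col5a2, a fibrillar collagen (28945 bp). The RNA-binding protein gene Hnrnpc was also among them, with a domain that held 72.4% of the gene but not its start. The other 224 include all 173 domains with the TSS inside, the class with the higher median fold. The contrast in fold therefore does not separate Myc from the TSS.

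The strongest Myc peaks at 0 min lay in domains of genes with different roles. The highest fold of a Myc peak in any domain was 87.0, at Ncl, whose RNAPII domain was only 20242 bp long. Psat1, an enzyme of serine synthesis, followed with 75.8 and the growth factor gene Hdgf with 74.6, both named after their values were seen. Khdrbs1 had 61.4, Hspa9, a mitochondrial chaperone, 60.9, Nop2, a nucleolar RNA methyltransferase, 52.2, Nolc1 48.8, Eif4b 45.9 and Fosl2, a subunit of AP-1, 44.7. Translation factors also held lower values, such as 17.3 at Eif4h. Among the 20 longest domains, 1 of the 2 at Cald1 had no Myc peak, and the others had values of 9.07 at Syn3 with Timp3 to 44.4 at Gm13834, with 36.0 at Mirlet7c-2, 32.5 at Eef1d and 18.4 at Nedd4. The matrix gene Sparc had 6.14.

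The E-box CACGTG was found in the 200 bp around the summit of 87 of 426 Myc peaks in the domains at 0 min (20.4%, 16.9 to 24.5), against 15.8% (15.3 to 16.3) of all 19995 Myc peaks. Windows of equal width 1000 bp away held it in 3.05% in the domains, against 2.73% for all Myc peaks. At a TSS the share in the domains was 23.4% (18.6 to 29.0) and away from a TSS 16.3% (11.6 to 22.4). In 63 of 215 domains the strongest 0 min Myc peak held the element, 8 of which are printed above. At 4 h, 3 of 51 peaks that overlapped no 0 min peak held it (5.88%, 2.02 to 15.9), against 85 of 394 that did (21.6%, 17.8 to 25.9). A match is a description of the letters in the window and not of binding.

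Miz1 was frequent in the domains as well. In the fibroblasts a Miz1 summit lay in 124 of 252 domains (49.2%, 43.1 to 55.3), against 13% of all 0 min narrow peaks. Per 10 kb the domains held 0.296 Miz1 summits, against 0.391 in all peaks. Of the 220 Miz1 summits in domains, 110 (50.0%) lay at a TSS, against 23.4% of all 8310, and 24.6% lay within 200 bp of a 0 min Myc summit, against 18.4% of all. Miz1 was in 99 of the 173 domains with the TSS inside and in 25 of the 79 with it outside. Within 1000 bp of the RNAPII summit it was present in 29.5% of the 193 domains with that summit at a TSS, against 14.1% of all 9776 such peaks. In the B cells, where no RNAPII list was analysed, 53 of the 252 fibroblast domains held a Miz1 summit (21.0%, 16.5 to 26.5), against 6.13% of all 0 min narrow peaks. Of these 69 summits 68.1% lay at a TSS, against 27.9% of all 4488. In both cell types the shares of Miz1 summits at a TSS were set against all Miz1 summits, inside or outside RNAPII peaks. Those of Myc were set against summits in RNAPII peaks, so the Miz1 and Myc comparisons are unlike. The Miz1 lists were called with looser p cutoffs than the Myc and RNAPII lists, per the file headers.

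The threshold of 20 kb separates neighbours that differ little. The 5 shortest domains were Tgfb3 (20212 bp, 29.8-fold), Lzts2 (20138 bp, 13.4-fold), 2500003M10Rik (20114 bp, 41.8-fold), 1300018J18Rik (20111 bp, 63.4-fold) and Klrg2 (20076 bp, 7.6-fold). The 5 longest peaks under the threshold lay at Trio (19984 bp, 6.85-fold), Tgif1 (19973 bp, 46.3-fold), Dusp8 (19922 bp, 26.8-fold), Sema3f (19916 bp, 27.2-fold) and at a place on chromosome 13 with no gene (19874 bp, 52.4-fold).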

How the data were processed

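Chromatin immunoprecipitation with sequencing was used in 14 libraries of 1 group each, and the input library was used only as the callers' control. Per the submitters' processing notes, the aligner was BWA (0.6.2-r126) and the build mm9, and tags were 51 bp per the file headers. Narrow RNAPII and Myc peaks were called with MACS 1.4.2 at a p cutoff of 1e-08 with 1 tag kept per position, and broad RNAPII peaks with MACS 2.0.9, per the file headers. The deposited narrow lists give a tag count, a score of 10 times the −log10 of p, a fold ratio and an FDR in percent for each peak. The deposited broad and Miz1 lists give a pileup signal, −log10 of p and q and a fold ratio. In the RNAPII lists 1 peak at 2 h and 1 at 4 h end past their chromosome.

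Peaks were compared by overlap of at least 1 bp, and Myc and Miz1 by their summits. A TSS lies within 1000 bp where so stated, and genes are from GENCODE vM1 on NCBIM37, the build of the lists. Python 3.11.15, pandas 2.3.3, numpy 2.4.6, scipy 1.17.1, pysam 0.24.0 and matplotlib 3.10.9 were used, and the scripts were tested on simulated data. The domains and gene lists were chosen with earlier results of these data known. The rule for named genes took the leading genes of the 20 longest domains, of the 6 least covered and the 6 furthest extended at 4 h, of the 6 with most Myc summits at 4 h and the 6 longest with none, of the 5 on each side of the threshold, and up to 6 members of each gene list. Domains without a protein-coding gene or with the most genes, those without a narrow peak at 4 h, and other single genes were chosen after their values were seen. Some named genes are not reported here. Lists of different depth were compared as deposited.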

Additional observations from a re-analysis of the deposited data

How the results depend on the processing

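Of 89 alternatives to 31 results, 36 left the value within its interval and 53 moved it. The interval was the Wilson interval for shares, the quartile range for median cover, and within 1.5 times for counts. Whether an alternative reversed a direction was not checked. The cause was not tested unless the alternative fixes it by construction. The number of domains was 507 with a minimum of 15 kb, 88 with 30 kb and 438 where peaks at most 1000 bp apart were joined. Counting a narrow or a broad peak gave 100% of domains at each later time and at all 5 together. With later peaks at most 1000 bp apart joined, 87.7% were under a peak of 20 kb or more at 10 min, and 82.5, 82.1 and 83.3% were at 30 min, 2 h and 4 h, so the lower shares at the late times rest in part on short gaps. In domains of 30 kb or more it was 83.0% at 30 min and 76.1% at 4 h. Over domains with a narrow peak at that time alone it was 91.2, 96.4, 83.0 and 79.0% from 10 min to 2 h. Broad in place of narrow lists gave a median cover of 55.0, 76.6, 48.2, 45.9 and 36.3% at 10, 20 and 30 min, 2 h and 4 h. Broad peaks covered at least 50% of 32.1% of domains at 0 min. Myc peaks at or above the median fold of their list lay in 79.0% of domains at 0 min, 82.5% at 30 min and 81.3% at 4 h. In domains of 30 kb or more a Myc summit lay in 93.2, 95.5, 95.5, 95.5, 96.6 and 94.3% at the 6 times. The share of Myc summits at a TSS was 46.7, 42.3, 42.4, 42.1, 39.4 and 42.0% within 500 bp, 65.3, 62.4, 59.8, 61.2, 56.9 and 60.5% within 2000 bp, and 52.8, 48.9, 47.0, 48.4, 44.0 and 47.6% with protein-coding transcripts alone. Genes with any 1 bp under a domain numbered 424. The narrow-or-broad count and the count over domains with a narrow peak were added after seeing the data. No paired analysis was possible because each group holds 1 library. Leaving out a library would empty its group. Depth limits comparisons between times other than 4 h with 30 min and 2 h with 10 min, whose libraries had about the same number of tags.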
